A study of Mus musculus with 3 samples.

Results

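Tubulins, kinesins, cytoplasmic dynein chains and dynactin subunits were followed in the polysome gradient fractions of mouse cells treated with siRNA against Eif4g3. Tubulins were set against the motors and dynactin. Members were all array gene names beginning with Tuba, Tubb, Tubg, Kif or Klc and a number, or with Kifc, Dync, Dynl or Dctn. This gave 75 of 27745 gene names, made up of 15 tubulins, 41 kinesin heavy and light chains (11 mitotic, 21 of intracellular transport and 9 others), 13 dynein chains and 6 dynactin subunits. Members were chosen by name, but the set was selected on the red over green ratios of these same 3 arrays, which were known when it was proposed, so all its values are a description. The cells were cultured stromal cells of BALB/c lymph nodes, the non-blood cells that build the scaffold of the node. They received 400 pmol of control siRNA or of Eif4g3 siRNA by lipid transfection, and were harvested after 48 h. For each siRNA the cells of 7 plates were pooled and spread by sedimentation over a sucrose gradient of 10% to 60%, which was collected as top, light polysome and heavy polysome RNA. Each of the 3 fractions was hybridised to 1 two-colour array, Eif4g3 siRNA in Cy5 against control siRNA in Cy3, with no replicate and no dye swap. No test between the siRNAs was therefore possible, and array, dye and treatment cannot be told apart.

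Microtubules are hollow polymers of paired alpha and beta tubulin, and gamma tubulin seeds their growth. Kinesins carry cargo along them, mostly towards the growing end, or build and move the mitotic spindle, and cytoplasmic dynein carries cargo the other way with the help of the dynactin complex. In stromal cells these proteins place organelles, move vesicles and divide the cell. Eif4g3 encodes eIF4GII, a scaffold that joins the cap-binding protein to the ribosome's initiation machinery. An mRNA with many ribosomes sediments into the heavy polysomes, and one with few or none stays near the top.

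Values below are log2 ratios, Eif4g3 siRNA divided by control siRNA, within a fraction, and 0 means equal relative abundance in both channels. A ratio compares shares of the RNA in a fraction, so less mRNA per cell and fewer cells holding it cannot be told apart. The error is the scanner software's error for the spot, combined over the probes of a gene, and it holds no biological spread. The siRNA target itself had ratios of -0.43 ± 0.16 at the top, -1.06 ± 0.16 in light and -1.77 ± 0.19 in heavy polysomes. The top array was the dimmest, with 34.82% of probes well above background in both channels, against 50.19% and 51.63% on the light and heavy arrays. The gap between channels before normalization ran in opposite directions on the light and heavy arrays, with upper-quartile signals of 290.9 (control) and 676.2 (siRNA) on the light and 1000.1 and 378.6 on the heavy array. Of 13 fibroblastic stroma markers 12 were measured in the heavy fraction and Cxcl13 was not. Endothelial markers numbered 2 of 7 measured, without Pecam1, leukocyte markers 3 of 8, without Ptprc, epithelial markers 1 of 6 and neuronal markers 1 of 5.

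Of the 75 members, 54 were measured at the top, 68 in light and 66 in heavy polysomes, and 54 were measured in all 3. Few members reached 2-fold. In the top and light fractions 0 of 54 and 0 of 68 members did, beside 0.430% of all measured genes higher and 0.265% lower in the top, and 0.397% higher and 0.291% lower in the light fraction. In the heavy fraction the gene labelled Kifc1 was higher (background 0.507%) and Dctn1 lower (background 0.305%), out of 66 members. For the difference of heavy minus top ratio, Kifc1 was higher (background 0.811%), and Dctn1 and Tuba3a were lower (background 0.700%), out of 54. For heavy minus light, no member was higher (0 of 66, background 0.102%), and Dctn1, Kif20a, Tuba1b and Tubb2c were lower (background 0.628%). Most members thus shifted by less than 2-fold.

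The families differed in where they lay. The tubulin median was 0.30 in the top fraction (11 of 14 above 0, beside 50.4% of all genes) and 0.43 in the light fraction (12 of 15 above 0, beside 52.6%). It was -0.10 in the heavy fraction, where 11 of 15 tubulins were below 0. The motors and dynactin had medians of 0.06, 0.11 and -0.12, with 36 of 51 below 0 in the heavy fraction. Among them the mitotic kinesins had a light median of 0.37, near that of the tubulins. All measured genes had medians of 0.00, 0.02 and -0.01, with 51.7% below 0 in the heavy fraction. For heavy minus top, the tubulin median was -0.33 (11 of 14 below 0) and that of motors and dynactin was -0.27 (27 of 40 below 0), beside 50.1% of all genes below 0. Kept to probes at or above the median signal, the motor and dynactin median for heavy minus top was -0.09, with 13 of 23 below 0. The heavy ratio was the lowest of the 3 fractions for 11 of 14 tubulins (78.6%) and for 26 of 40 motor and dynactin genes (65.0%), beside 3798 of 10657 genes in all (35.6%). Ratios above 0 in the top and light fractions and below 0 in the heavy fraction were found for 7 of the 14 tubulins, 16 of the 40 motor and dynactin genes and 11.6% of all genes. Markers of smooth muscle and pericytes, of which 5 of 7 were measured in the light and heavy fractions, had medians of 0.22, 0.39 and 0.15 in the same order of fractions. All 5 were above 0 in the light fraction and below 0 in heavy minus light, and Cnn1 had 0.86, 0.64 and 0.52. Des and Rgs5 had no value. The stroma marker Vim had 1.05, 1.14 and 0.37, but its list of fibroblastic stroma markers had medians of -0.10, 0.03 and -0.23. At the top 10 of the 12 stroma markers measured were below 0. The part of smooth muscle, pericyte or stromal cells in the tubulin ratios was not tested.

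**Figure D1:**
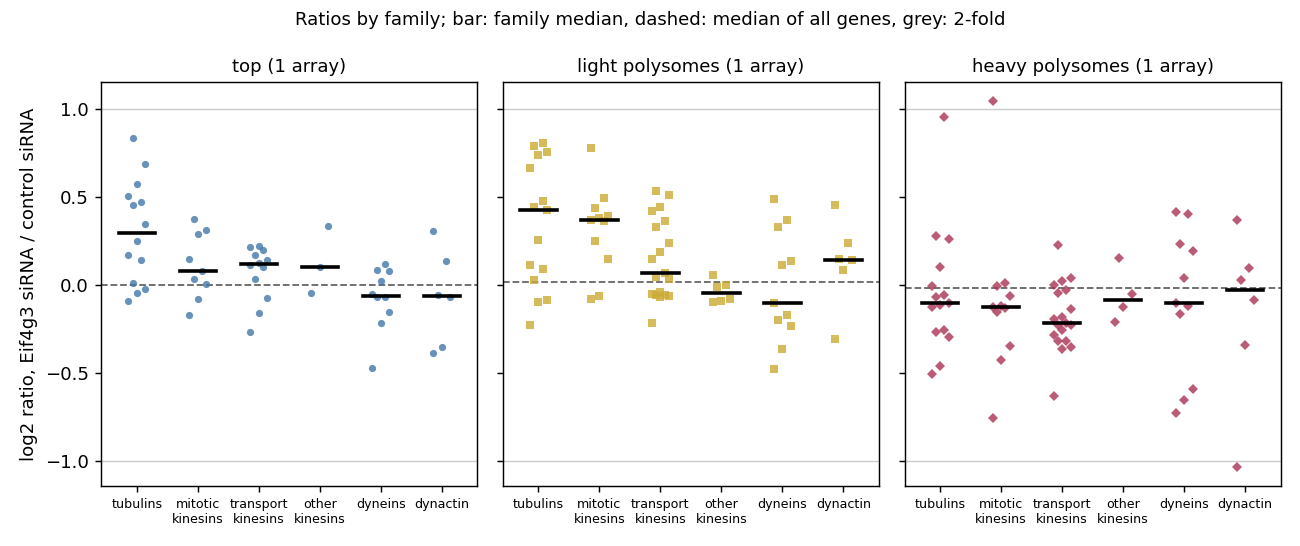
Each point is a measured gene's log2 ratio (Eif4g3 siRNA over control siRNA), with 1 panel per fraction and 1 array per panel. Black bars are family medians, dashed lines the median of all genes and grey lines 2-fold. The tubulin median lies above those of the other families in the top and light panels (0.30 and 0.43), with mitotic kinesins close in the light panel (0.37). The heavy panel holds the 2 members past 2-fold, Kifc1 at 1.05 and Dctn1 at -1.04.

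The 5′ ends of the tubulin mRNAs are shown because cap-proximal bases are read when ribosomes are recruited, which is the step that eIF4G proteins serve. A C at the first transcribed base within an unbroken run of at least 5 pyrimidines, the form found in mRNAs with a 5′ terminal oligopyrimidine tract, was searched on the transcribed strand. It was present in 2 of 64 annotated starts of 57 members, Tuba1a (run of 10) and Tuba8 (run of 7), beside 823 of 32851 starts of all genes (2.51%). Both are among the 12 tubulin starts in the RefSeq table (GRCm38.p6). Capitals mark the first 20 transcribed bases after 10 bases of upstream sequence, and annotated starts can differ from those used in these cells. For comparison Tuba1b, Tuba4a, the dynactin gene Dctn1 and the light chain gene Dynll1, whose ratios are given below, are shown without such a run.
Tuba1a (chr15:98953482-98953511, minus strand): agaagcaacaCCTCCTCCTCGCCTCCGCCA
Tuba8 (chr6:121210724-121210753, plus strand): ctcaggccccCTCCCTCGCAGTGTGTCACA
Tuba1b (chr15:98934371-98934400, minus strand): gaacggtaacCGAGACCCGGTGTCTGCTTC
Tuba4a (chr1:75219275-75219304, minus strand): gcgcaggtccCGCCTCCTGCCTATAAGAGC
Dctn1 (chr6:83179579-83179608, plus strand): gcttcctgacAGTCTAGAGCAGCACTAGCG
Dynll1 (chr5:115300971-115301000, minus strand): gggcggggccGCGGGCGCAGGGCGGGGCCT

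Alpha tubulin ratios were lowest in heavy polysomes in all 5 genes measured in the 3 fractions, and 3 of the 5 were highest at the top. All 5 measured in the top fraction were above 0 there, with a median of 0.57, against 0.36 in light and -0.26 in heavy polysomes, where 4 of 6 were below 0. Heavy minus top was below 0 for all 5, from -1.14 to -0.35, with a median of -0.83. Tuba1b, a broadly expressed alpha tubulin, had 0.57 ± 0.21 at the top, 0.81 ± 0.22 in light and -0.26 ± 0.21 in heavy polysomes. It was the highest alpha tubulin in the light fraction, and its heavy minus light difference of -1.06 ± 0.30, a 2.09-fold fall, came from a single probe (chromosome 15, 98760823 to 98761014, minus strand, mm8). With the 3 arrays scaled to one spread that difference was -0.98, short of 2-fold. Tuba4a, which is encoded without the terminal tyrosine of most alpha tubulins, had 0.35 ± 0.12, 0.09 ± 0.12 and -0.50 ± 0.12 over 3 probes. Its top ratio was above 0 and its heavy ratio below 0, both by more than 1.96 times their errors, and heavy minus top was -0.85 ± 0.17.

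Tuba3a, an alpha tubulin known chiefly from testis, passed 2-fold for heavy minus top at -1.14 ± 0.30, a 2.20-fold fall. Only 1 of its 2 probes was measured in the top fraction, and that probe (chromosome 6, 125246707 to 125246766, minus strand, mm8) had 0.69, 0.45 and -0.45 in the top, light and heavy fractions. Over both probes the gene's heavy ratio was -0.27 ± 0.18, and with dim probes kept its heavy minus top difference was -0.70. Tuba1a, prominent in neurons and dividing precursors, had 0.45 ± 0.21, 0.48 ± 0.21 and 0.10 ± 0.20. Tuba1c, another broadly expressed alpha tubulin, had 0.83 ± 0.21, 0.66 ± 0.21 and 0.26 ± 0.20. Both were above 0 in all 3 fractions and lowest in the heavy one, where Tuba1b, Tuba3a and Tuba4a were below 0, but the heavy ratio of Tuba1a was within its error and -0.11 with the software's ratio. Tuba1c had the highest top ratio of the members, though with the software's ratio it was 0.45, below Kif14 (1.38) and Dctn1 (0.82). Tuba8 was not measured in the top fraction and had -0.22 ± 0.35 in light and -0.46 ± 0.23 in heavy polysomes. For the 2 genes with a pyrimidine run at the start, the Tuba1a heavy ratio and the Tuba8 light ratio were thus within their errors. The Tuba1a top and light ratios, above 0, and the Tuba8 heavy ratio, below 0, were beyond theirs. Alpha tubulin mRNAs are near-identical over long stretches, and how far a probe tells them apart was not tested, since probe sequences were not used here.

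**Figure D2:**
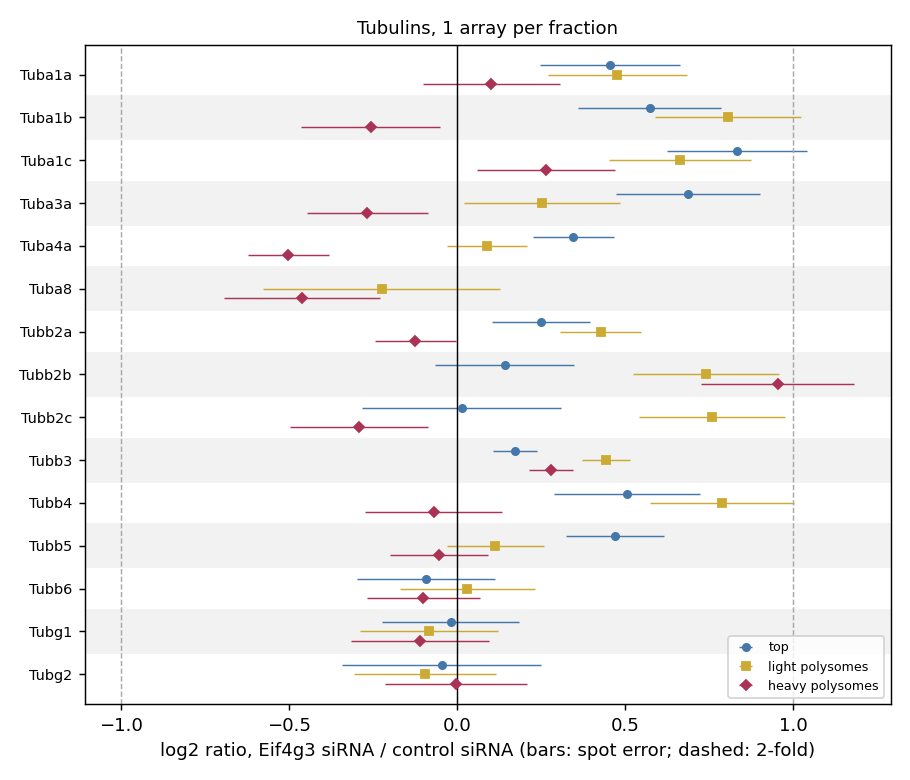
Log2 ratios of the 15 tubulins in the top (circles), light (squares) and heavy (diamonds) fractions, 1 array each, with bars of the spot error and dashed lines at 2-fold. The heavy ratio lies left of the top and light ratios for all 5 alpha tubulins measured in the 3 fractions, Tubb2b lies far right in the heavy fraction (0.95), and Tubg1 and Tubg2 stay near 0.

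Beta tubulins were spread more widely. All 7 were above 0 in the light fraction (median 0.44), 6 of 7 in the top fraction (median 0.17) and 2 of 7 in the heavy fraction (median -0.07). Tubb2c, now named Tubb4b and found in most tissues, had 0.01 ± 0.30 at the top, 0.76 ± 0.22 in light and -0.29 ± 0.21 in heavy polysomes. Its heavy minus light difference of -1.05 ± 0.30, a 2.07-fold fall, was the only 2-fold difference among the beta tubulins, and it was -0.97 with the arrays scaled to one spread. The probe lies on the minus strand of chromosome 2, from 25044995 to 25045054 (mm8). Tubb4, now named Tubb4a and best known from brain, had 0.50 ± 0.22, 0.79 ± 0.22 and -0.07 ± 0.20. Tubb2a had 0.25 ± 0.15, 0.43 ± 0.12 and -0.12 ± 0.12 over up to 3 probes. These 3 genes shared a light ratio above the top and the heavy ratio. Tubb5, the most widespread beta tubulin, instead was highest in the top fraction, with 0.47 ± 0.15, 0.11 ± 0.14 and -0.05 ± 0.14.

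Tubb2b ran the other way. It had 0.14 ± 0.21 at the top, 0.74 ± 0.22 in light and 0.95 ± 0.23 in heavy polysomes, and its heavy minus top difference of 0.81 ± 0.31 was the highest of the tubulins. These values came from a single probe, and the heavy ratio was 1.08 with the scanner software's ratio, past 2-fold. How far a probe tells one beta tubulin mRNA from another was not tested. Tubb3, the beta tubulin used as a neuronal marker, was above 0 in all 3 fractions, at 0.17 ± 0.07, 0.44 ± 0.07 and 0.28 ± 0.07. Tubb6 had -0.09 ± 0.20, 0.03 ± 0.20 and -0.10 ± 0.17, none beyond its error. The gamma tubulins, which seed microtubules and are not part of their wall, had no ratio beyond its error. Tubg1 had -0.02 ± 0.20, -0.08 ± 0.20 and -0.11 ± 0.20, and Tubg2 lay between -0.10 and 0.00. Heavy minus top was -0.09 ± 0.29 for Tubg1 and 0.04 ± 0.36 for Tubg2.

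Dynactin links dynein to cargo and to the microtubule, and its largest subunit, p150Glued, is encoded by Dctn1. Dctn1 had 0.31 ± 0.24 at the top, 0.46 ± 0.21 in light and -1.04 ± 0.22 in heavy polysomes, so it was above 0 in the first 2 and 2.05-fold lower in the heavy polysomes. Heavy minus top was -1.34 ± 0.33 (2.54-fold) and heavy minus light -1.49 ± 0.31 (2.81-fold), the lowest of all members for both. The heavy ratio was -0.97 with the software's ratio and -0.91 with arrays scaled to one spread, both short of 2-fold. A single probe gave these values (chromosome 6, 83165352 to 83165411, plus strand, mm8).

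Of the other dynactin genes only Dctn2 shared this order, with the heavy ratio lowest and the light ratio highest. It stayed short of 2-fold, and its top and light ratios were within their errors. Dctn2, which encodes the dynamitin subunit of the shoulder, had -0.05 ± 0.20, 0.09 ± 0.20 and -0.34 ± 0.21. Dctn3, which encodes the p24 subunit beside it, had -0.35 ± 0.21, 0.24 ± 0.20 and 0.37 ± 0.21, and its heavy minus top difference of 0.72 ± 0.29 was the highest among dyneins and dynactin. These 3 shoulder and arm subunits of a single complex thus ran from -1.34 to 0.72 in heavy minus top. Of the pointed-end subunits, Dctn4 had 0.14 ± 0.14, -0.31 ± 0.15 and 0.03 ± 0.13, where 2 of its probes measured in all 3 fractions gave heavy ratios of 0.48 and -0.24. Dctn5 had -0.07 ± 0.13, 0.15 ± 0.12 and 0.10 ± 0.12. Dctn6 had -0.38 ± 0.21, 0.14 ± 0.20 and -0.08 ± 0.20. The dynactin median for heavy minus top was 0.07, with 3 of 6 above 0, and it ran from -0.08 to 0.30 over 7 other ways of processing.

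The dynein chains split by their place in the motor, a division made after the values had been seen. The force-producing and scaffold chains, that is the heavy, intermediate and light intermediate chains, were all below 0 in the heavy fraction (6 of 6, median -0.37) and in heavy minus top (5 of 5, median -0.51). The light chains at the base of the tail were all below 0 in the top fraction (5 of 5, median -0.07) and all above 0 in the heavy fraction (5 of 5, median 0.23) and in heavy minus top (5 of 5, median 0.47). Beside these, 49.6% of all measured genes were below 0 in the top fraction, 51.7% below and 48.3% above 0 in the heavy fraction, and 49.9% above 0 in heavy minus top. Among the light chains only Dynlrb1 was below 0 at the top by more than its error. Dynll2, Dynlt1 and Dynlt3 had probes of both signs there. The heavy minus light medians were -0.44 for the larger chains and 0.43 for the light chains, and without loess that of the light chains was -0.00.

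Dync1h1, the heavy chain that holds the motor of cytoplasmic dynein 1, had 0.02 ± 0.20 at the top, -0.20 ± 0.20 in light and -0.65 ± 0.22 in heavy polysomes. It was lowest in the heavy polysomes, and 1 of its 3 probes was measured there. Dync1i2, an intermediate chain that binds dynactin, had 0.12 ± 0.21, 0.33 ± 0.15 and -0.59 ± 0.15. Dync1li1, a light intermediate chain that binds cargo adaptors, had -0.21 ± 0.22, -0.48 ± 0.21 and -0.73 ± 0.21, below 0 throughout. Heavy minus top was -0.67 ± 0.30 for Dync1h1, -0.52 ± 0.29 for Dync1i2 on 1 of its 2 probes, and -0.51 ± 0.31 for Dync1li1. Dync1li2, the relative of Dync1li1, was nearer to 0, with 0.09 ± 0.16, 0.11 ± 0.10 and -0.12 ± 0.10. The chains of dynein 2, the motor of cilia, were above 0 in the light fraction, with 0.37 ± 0.15 for the heavy chain Dync2h1 and 0.49 ± 0.21 for Dync2li1, and at -0.10 ± 0.12 and -0.16 ± 0.20 in the heavy fraction.

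Dynll1, the light chain LC8 that also binds many partners outside dynein, had -0.15 ± 0.17 at the top, -0.10 ± 0.15 in light and 0.41 ± 0.15 in heavy polysomes. Both of its probes were above 0 in the heavy fraction, at 0.27 and 0.56. Dynlt3, a Tctex-type light chain, had -0.07 ± 0.15, -0.17 ± 0.15 and 0.40 ± 0.15. Dynlrb1, a roadblock-type light chain, had -0.47 ± 0.21, -0.36 ± 0.21 and 0.04 ± 0.20, so its heavy minus top difference of 0.51 ± 0.29 came from a low top ratio, while those of Dynll1 (0.57 ± 0.23) and Dynlt3 (0.47 ± 0.21) came mainly from a high heavy ratio. Dynll2, the second LC8 gene, had 0.20 ± 0.12 in the heavy fraction, from probes at -0.10, 0.27 and 0.42. Dynlt1 had 0.23 ± 0.12 there, and its 3 probes disagreed, at 0.44, -0.38 and 0.64, with heavy minus top at 0.55, -0.53 and 0.83. The count of 5 light chains above 0 thus rests, for these genes, on means over probes of both signs. The RefSeq accession of 1 of the 3 Dynlt1 probes now belongs to Dynlt1b, a gene with near-identical copies, and which copy was measured is uncertain.

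**Figure D3:**
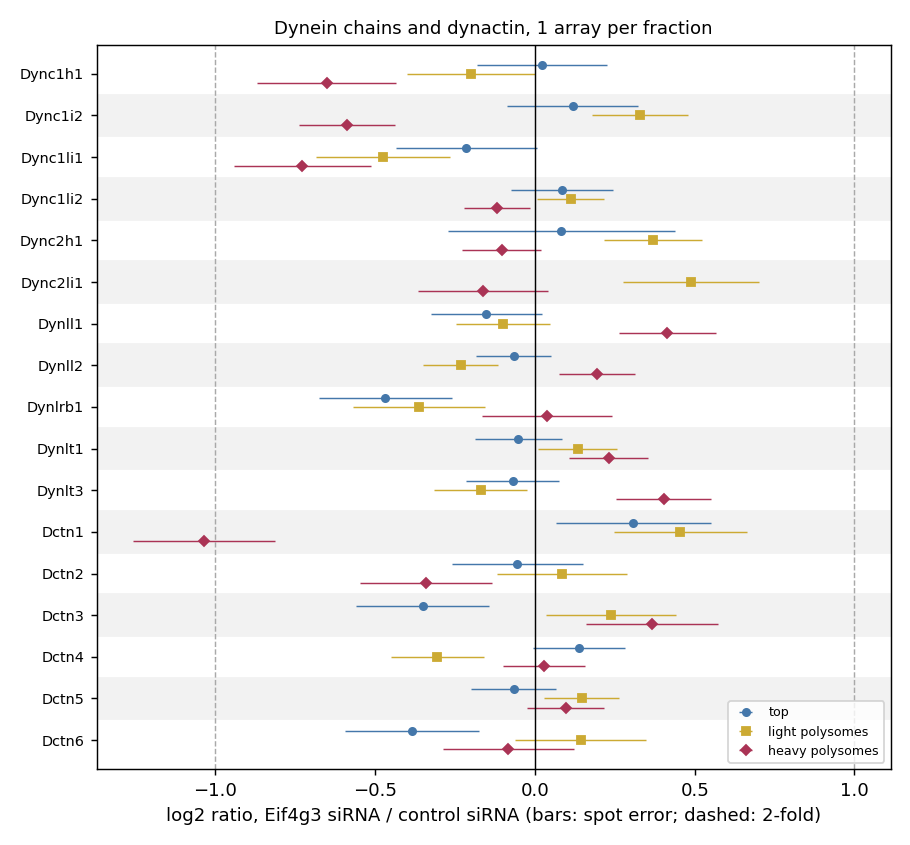
Log2 ratios of the 11 measured dynein chains and 6 dynactin subunits in the top (circles), light (squares) and heavy (diamonds) fractions, 1 array each, with bars of the spot error and dashed lines at 2-fold. The heavy ratios of the 6 upper dynein chains lie left of 0 and those of the 5 light chains right of it, and Dctn1 is the point at -1.04.

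The same arrays give the place of each mRNA in the gradient, as the normalized log2 signal in the heavy fraction minus that in the top fraction, within each siRNA. Fractions are scaled to one distribution for this, so 0 is no absolute balance, and the ratio differences above are the siRNA minus the control position. In control cells the tubulin median was 1.33 towards the heavy polysomes, and in Eif4g3 siRNA cells 0.80. The 5 larger dynein chains measured in both fractions had 0.77 in control and 0.29 in siRNA cells. The light chains lay towards the top, with a median of -0.73 in control and -0.47 in siRNA cells, and all 5 were below 0 in control cells. All genes had -0.07 and -0.06. The control signal enters both the position and the ratio, and over all genes heavy minus top was below 0 for 58.6% of those with a control position above 0 and for 42.4% of those below 0. Among members these were 30 of 35 and 8 of 19. Dctn1 had the highest control position of any member, at 3.36, and 2.02 after Eif4g3 siRNA. Tubb2c was next, at 3.24 in control and 2.93 in siRNA cells, a smaller step. Tuba4a went from 0.14 to -0.71 and Dync1h1 from 0.31 to -0.36. Tubb2b went from -1.09 to -0.27 and Dctn3 from 0.31 to 1.03.

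**Figure D4:**
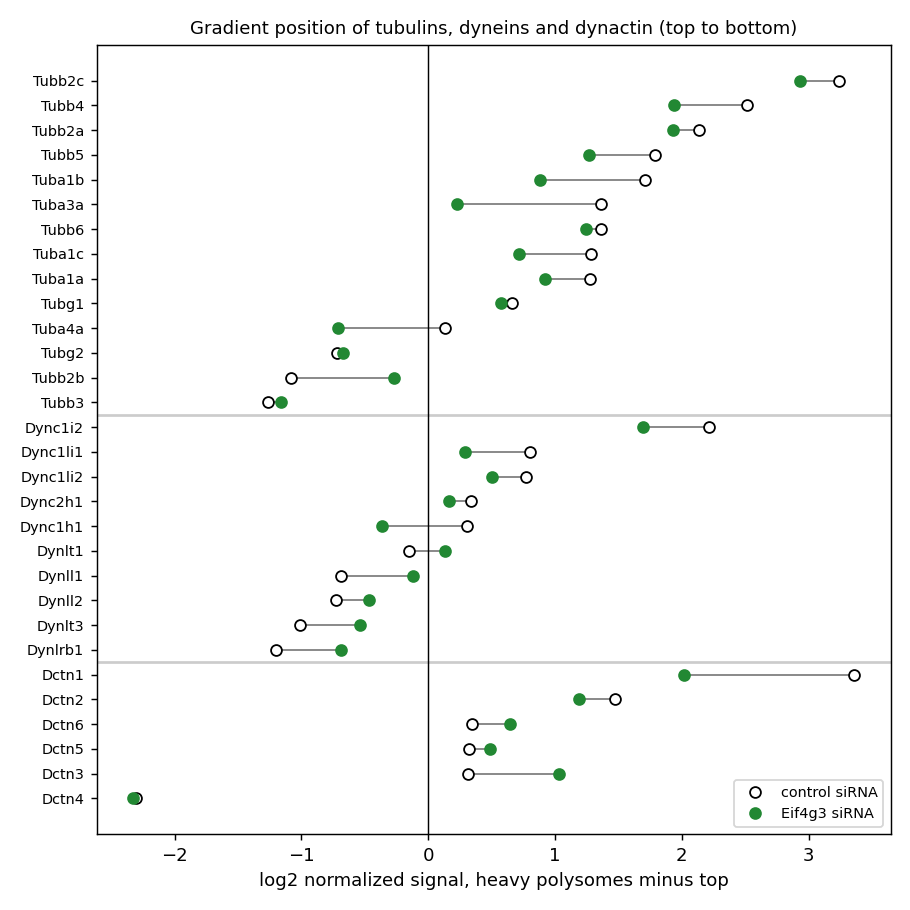
Normalized log2 signal in the heavy fraction minus that in the top fraction, for control siRNA (open) and Eif4g3 siRNA (filled), with 1 array per fraction and a line joining the values of a gene. Tubulins are in the upper, dyneins in the middle and dynactin in the lower block. Most tubulins and the 5 larger dynein chains lie left of their control value after Eif4g3 siRNA, and the 5 dynein light chains lie right of it.

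Mitotic kinesins, which build the spindle, move chromosomes and complete cell division, mostly had higher ratios in the light than in the heavy fraction. Of 11 measured, 9 were above 0 in the light fraction (median 0.37) and 9 were below 0 in the heavy fraction (median -0.12), and the heavy minus light median was -0.49 (9 of 11 below 0, beside 52.9% of all genes). Kif20a, needed for the last step of cell division, had 0.01 ± 0.15 at the top, 0.36 ± 0.15 in light and -0.75 ± 0.15 in heavy polysomes. Its heavy minus light difference of -1.12 ± 0.21, a 2.17-fold fall, was carried by both probes at -1.19 and -1.05, which overlap in position, and heavy minus top was -0.76 ± 0.21. Kif11, the spindle motor Eg5, had 0.08 ± 0.37, 0.15 ± 0.22 and -0.35 ± 0.21. Kif4, a chromosome motor, had 0.03 ± 0.19, 0.25 ± 0.15 and -0.43 ± 0.15. Kif11 and Kif4 were thus lowest in the heavy fraction too, though neither reached 2-fold. Kif22, another chromosome motor, had 0.31 ± 0.21, 0.39 ± 0.21 and -0.13 ± 0.20. Kif23, of the central spindle, had 0.15 ± 0.17, 0.38 ± 0.15 and -0.12 ± 0.14. Kif14, which acts late in division, had 0.29 ± 0.29, 0.49 ± 0.22 and 0.01 ± 0.21. A list of 29 other proliferation genes had a median of 0.37 in the light fraction (26 of 29 above 0), -0.08 in the heavy fraction and -0.35 in heavy minus light (28 of 29 below 0). The part of proliferation in the mitotic kinesin values was not tested. Kif24 stood outside this order, with -0.06 ± 0.22 in light and -0.01 ± 0.18 in heavy polysomes, both within their errors. Kif15 was also below 0 in light, with -0.08 ± 0.22, and had -0.15 ± 0.24 in heavy polysomes, both within their errors.

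The gene labelled Kifc1, a kinesin that moves towards the minus end and gathers spindle poles, was one of the exceptions. It had -0.17 ± 0.16 at the top, 0.78 ± 0.16 in light and 1.05 ± 0.17 in heavy polysomes, a 2.07-fold rise, and its heavy minus top difference of 1.22 ± 0.24 (2.33-fold) was the highest of all members. The probes gave 0.82 and 1.28 in the heavy fraction, and the gene's heavy ratio was 0.99 without loess and 0.92 with arrays scaled to one spread. The identity of these probes is uncertain. Both lie on the plus strand of chromosome 17 (26653488 to 26653867 and 26659711 to 26659763, mm8), whereas Kifc1 is annotated on the minus strand in the newer GRCm38 table. The RefSeq accession of the first probe now belongs to the related gene Kifc5b. Across all members 3 probes, those of Kifc1 included, lay opposite to the annotated strand, against 109 on the same strand. Without Kifc1, a step chosen after the values were seen, the mitotic kinesin median was -0.13 in the heavy fraction and -0.39 in heavy minus top.

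Transport kinesins had medians of 0.12 at the top, 0.07 in light and -0.21 in heavy polysomes, where 15 of 19 were below 0, and none reached 2-fold. Heavy minus top was -0.11, with 9 of 12 below 0. Kif1a, a fast carrier of synaptic vesicle precursors in neurons, had 0.20 ± 0.21 at the top, 0.33 ± 0.15 in light and -0.63 ± 0.15 in heavy polysomes. It had the lowest heavy ratio and, at -0.74 ± 0.30 on 1 of its 2 probes, the lowest heavy minus top difference of its family. Its heavy minus light difference of -0.96 ± 0.21 passed 2-fold under 5 of 7 other ways of processing. Kif5b, the main conventional kinesin outside neurons, had 0.22 ± 0.21, 0.44 ± 0.15 and -0.32 ± 0.15. Kif3a, a subunit of the motor that builds cilia, had 0.11 ± 0.35, 0.42 ± 0.15 and -0.35 ± 0.15. In these 3 genes the light ratio was above 0 and the heavy ratio below 0, each beyond 1.96 times its error. Kif3b, the partner of Kif3a in that motor, had 0.24 ± 0.15 in light and -0.14 ± 0.15 in heavy polysomes and was not measured in the top.

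Kif1b, a carrier of mitochondria and vesicles, had 0.22 ± 0.16, -0.07 ± 0.12 and -0.29 ± 0.11. Its heavy minus top difference of -0.69 ± 0.22 used 2 of its 4 probes. The probes not measured at the top had heavy ratios of -0.01 and -0.19. Klc1, a light chain that binds cargo to conventional kinesin, had 0.10 ± 0.21, 0.36 ± 0.15 and -0.18 ± 0.15. Klc3 had 0.14 ± 0.21, 0.03 ± 0.20 and 0.23 ± 0.20, the only transport gene whose heavy ratio was above 0 by more than its error. Kifc3 had -0.07 ± 0.21, -0.05 ± 0.15 and -0.20 ± 0.15. For Klc1, Klc3 and Kifc3 heavy minus top lay between 0.04 and 0.09, the highest of the family. For Klc1 and Kifc3 this used 1 of 2 probes, and the probe not measured at the top had heavy ratios of -0.50 and -0.41. Kif5c, a conventional kinesin of neurons, lay between -0.03 and 0.04 in all fractions. Among the other kinesins, Kif2a, which takes microtubules apart, had 0.33 ± 0.15 at the top, -0.10 ± 0.15 in light and -0.12 ± 0.14 in heavy polysomes, with heavy minus top at -0.46 ± 0.21. Kif26b had -0.31 ± 0.38 for that difference, within its error. Kifc5c, counted among the kinesins but now listed under the pseudogene name Kifc5c-ps, had 0.20 ± 0.48, also within its error.

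**Figure D5:**
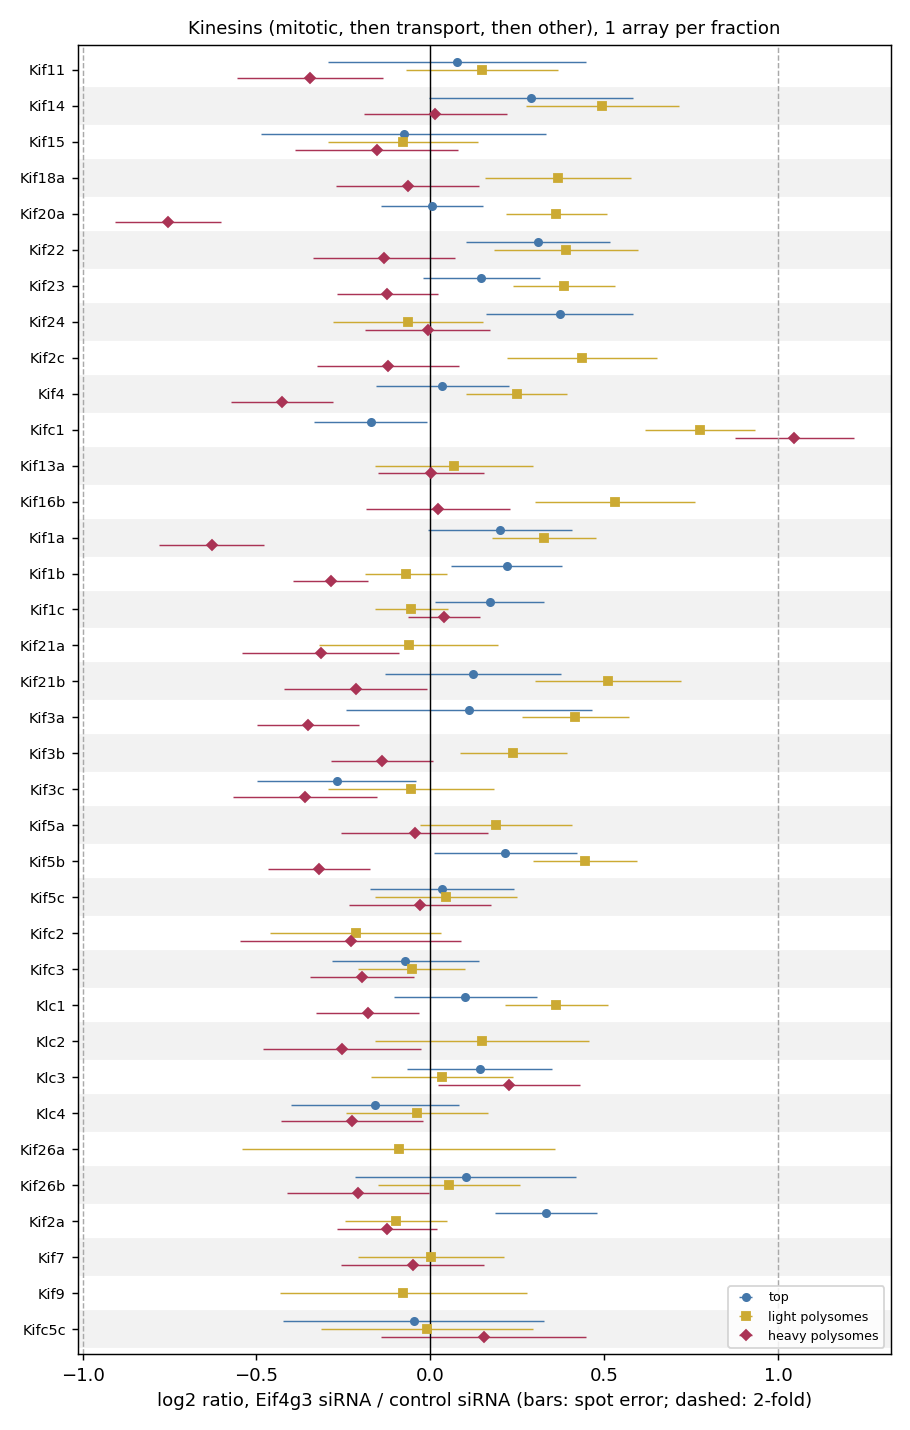
Log2 ratios of the measured kinesin heavy and light chains in the top (circles), light (squares) and heavy (diamonds) fractions, 1 array each, with bars of the spot error and dashed lines at 2-fold. Mitotic genes come first, then transport and other genes. Kifc1 (1.05) is the only kinesin past 2-fold in the heavy fraction, and Kif20a (-0.75) and Kif1a (-0.63) are the lowest there.

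Lists of genes that fold, modify or bind tubulin had heavy minus top medians on both sides of 0. Over all genes 49.9% were above and 50.1% below 0 for that difference. The folding and modification list had a median of 0.08 for heavy minus top (11 of 18 above 0). Its highest member was Tbca, a chaperone for beta tubulin, with -0.43 ± 0.21 at the top, -0.01 ± 0.20 in light and 0.70 ± 0.21 in heavy polysomes, and a difference of 1.13 ± 0.30. The prefoldin gene Pfdn4 was next at 0.66 ± 0.29, and Tbcd (-0.46 ± 0.29) and Ttll12 (-0.37 ± 0.29) were the lowest. Genes of the gamma-tubulin ring and centrosome had a median of 0.01 (4 of 7 above 0), from Tube1 (0.33 ± 0.31) and Nedd1 (0.21 ± 0.32) to Akap9 (-0.13 ± 0.22) and Pcnt (-0.44 ± 0.29). Microtubule-binding proteins had -0.15 (18 of 24 below 0), with Map1lc3b (0.57 ± 0.21) and Map1lc3a (0.49 ± 0.29), both better known for autophagy, highest. The lowest were Macf1 (-0.84 ± 0.34), a large linker of actin and microtubules, and Mtap4 (-0.73 ± 0.21), now named Map4. Partners and adaptors of dynein and kinesin had -0.23 (12 of 18 below 0), from Ndel1 (0.42 ± 0.29) and Trak1 (0.26 ± 0.33) to Mapk8ip1 (-0.50 ± 0.40) and Kifap3 (-0.60 ± 0.17), the accessory subunit of the Kif3 motor. For heavy minus light the medians of these lists were all below 0. They were -0.12 (14 of 23 below 0), -0.26 (7 of 10), -0.21 (25 of 31) and -0.18 (18 of 19), in the order above. Motors and dynactin had -0.25 there, and 52.9% of all genes were below 0.

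Members without a value in all fractions are accounted for as follows. Dync1i1, Dynlrb2, Kif12, Kif13b, Kif17, Kif27 and Kif2b were measured in none, and Kif26a and Kif9 in the light fraction only. In the top fraction Kif2c was above background in the control channel alone, Dync2li1 and Kifc2 in the siRNA channel alone, and 18 members in neither. In the heavy fraction Kif13b, Kif26a and Kif9 were above background in the control channel alone and 6 members in neither. Of the 75 members 28 have a single probe, so their values have no check by another probe, and the median SD between probes of a gene was 0.11 at the top, 0.16 in light and 0.15 in heavy polysomes over all genes.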

How the data were processed

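RNA of 3 gradient fractions was measured on 3 two-colour arrays (Agilent Whole Mouse Genome). Per the file headers, the deposited scanner output of Agilent Feature Extraction 10.5.1.1 gives the linear intensity of each spot in both channels. It further gives a log10 ratio (red over green) with an error, and marks for spots above background, as deposited. The value table deposited by the authors gives log2 ratios. For probes with a single spot, the only ones compared, these equal the log2 of the software's processed red over green signal. The largest difference was 2.8e-06, so the scale and direction of the value table are known. Its column medians were -0.09, -0.01 and 0.22 for the top, light and heavy array, and the sources used here do not give any further centring.

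Intensities were corrected by normexp (offset 50) and normalized within each array by loess with limma 3.58.1 in R 4.3.3, with control spots at weight 0. Left out were 220 (top), 170 (light) and 183 (heavy) spots with outlier marks, and 0 spots were saturated. Regressed on the software's ratios, these ratios had slopes of 0.571, 0.718 and 0.721 in the same order, so they are compressed, above all on the top array, and the software's error was not rescaled. A probe counted as measured when well above background in both channels in at least 0.5 of its spots, and a gene is the mean over measured probes. Differences between fractions use probes measured in both. Signals per channel were scaled by Aquantile for positions in the gradient. Members past 2-fold (log2 of 1 or -1) were counted beside all genes, and no p-value was computed because each group is 1 array, whose number limits the precision.

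Members and lists were chosen with earlier results of these data known. Described in full were members past 2-fold, the 3 highest and 3 lowest of each family by heavy minus top, and Tuba1a, Tuba1b, Tubb5, Kif5b, Kif11, Dync1h1, Dynll1 and all dynactin genes, with the 2 highest and 2 lowest of each neighbour list. The proliferation list stands beside the mitotic kinesins by its medians. Probe coordinates are of mm8 (NCBI36), for which no annotation of exons or UTRs was used. Names were checked against a GRCm38.p6 RefSeq table, where 71 members kept their symbol and 4 were matched by accession or synonym. Alternatives were offset 0, the software's ratio, median centring without loess, arrays scaled to one spread (median absolute deviation), no filter on dim probes, a stricter filter, the brightest probe per gene, and motors without dynactin. The steps were tested on simulated data.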

Additional observations from a re-analysis of the deposited data

Results flagged for a closer look

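In 7 members the ratio was above 0 in one fraction and below 0 in the heavy fraction, each beyond 1.96 times its spot error. With 1 array per fraction the difference itself was not tested. The rule was applied to members alone, of which 66 had a heavy minus light and 54 a heavy minus top difference. No share of all genes therefore stands beside this count. The heavy minus light difference was -1.49 for Dctn1, -1.12 for Kif20a, -0.96 for Kif1a, -0.92 for Dync1i2, -0.77 for Kif3a and -0.76 for Kif5b. Tuba4a had a heavy minus top difference of -0.85. All 7 ran the same way, with the heavy fraction below 0, and the heavy array was also the one with the brighter control channel before normalization. The part of that channel gap in these differences was not tested.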

How the results depend on the processing

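Over 7 other ways of processing, and without dynactin for the motors, the family medians of the tubulins and of the motors and dynactin kept their sign in each fraction, in heavy minus top and in heavy minus light. Of 2054 values of single members under an alternative, 1790 moved by less than their spot error, 264 moved further and 0 reversed a call. A reversal could be counted only for a value past 2-fold in the main processing. Smaller values did change sign, as for Kif15 in heavy minus light, where 2 of 6 alternatives kept the sign. The tubulin top median was 0.17 with dim probes kept, the tubulin heavy minus light median was -0.58 without loess, and the motor heavy minus top median was -0.09 among probes of at least median signal. Counts of members past 2-fold changed with the setting, and the cause was not tested. The share of all genes changed as well and stands in brackets, under the same setting and direction. In the top fraction 1 of 54 members was higher with the software's ratio (Kif14, beside 1.38% of all genes). With arrays scaled to one spread 1 was higher (Tuba1c, beside 0.941%). In the light fraction 3 of 68 were higher without loess (Tuba1b, Tuba1c and Tubb4, beside 1.09%). In the heavy fraction 2 of 66 were higher with offset 0 (1.05%) and 2 with the software's ratio (1.75%), both times Kifc1 and Tubb2b. Without loess 0 were higher (1.4%), and with one spread 0 (0.264%). Lower in the heavy fraction were 0 with the software's ratio (0.715%) and 0 with one spread (0.16%). For heavy minus top, 0 of 35 were higher among brighter probes (1.48%). Lower were 4 of 54 with the software's ratio (1.45%) and 1 of 75 with dim probes kept (0.245%). Among brighter probes 1 of 35 was lower (1.17%). For heavy minus light without loess, 3 of 66 were higher (8.22%) and 10 lower (3.17%). With one spread 2 were lower (0.387%). Dim spots limit the top fraction, where 54 members were measured. No paired analysis was possible because each fraction is 1 array.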
